A study of Mus musculus with 23 samples.

Results

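The TGF-beta, BMP and SMAD family was measured in 23 mouse mammary carcinomas, and comprised the 49 genes of a 3826-gene amplicon panel whose symbols begin as those of the TGF-beta ligands and receptors, the BMPs and their receptors, the SMADs, the activin receptors, the inhibin subunits, the GDFs and the latent TGF-beta binding proteins do. The rule reads the symbol alone and uses no measured value. The control group held 11 tumours of animals given vehicle, and the treated group 12 tumours of animals given abemaciclib, an oral drug that blocks CDK4 and CDK6, at 90 mg/kg daily by gavage. All animals, controls included, had been given doxycycline from an age of 6 weeks to induce tumours, were randomized once tumours were established, and had tumour tissue frozen after the 12th dose. The labels name neither strain, transgene nor promoter, and number tumours without naming animals, so the p-values below measure the spread between tumours, some of which may share an animal.

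Ligands of this family are secreted dimers. Most of them bring together a type II and a type I serine/threonine kinase receptor. The type I receptor then phosphorylates receptor-activated SMADs, which enter the nucleus with the common partner Smad4. TGF-beta and activin receptors act through Smad2 and Smad3, BMP receptors through Smad1, Smad5 and Smad9, and the inhibitory Smad6 and Smad7 close the loop. TGF-beta is stored in the matrix in a latent complex with some, not all, of the proteins of the Ltbp group. In mammary epithelium TGF-beta is best known for restraining proliferation in normal cells and for effects on stroma and invasion in carcinomas. Of the 49 symbols, Bmp1, Tgfbi, Tgfb1i1 and Tgfbrap1 are members by name but are neither ligands, receptors nor SMADs. A family symbol also does not show that a ligand, such as Gdf15, acts through these receptors and SMADs.

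No family member passed the test for a difference between the groups. By edgeR's quasi-likelihood test, 0 of the 30 members with enough reads were higher and 0 lower in the treated tumours after Benjamini-Hochberg adjustment at 0.05, where 0% of the 2925 panel genes tested were called. Tgfbr1, the type I receptor of TGF-beta, came nearest, with a level 1.39 times that of control and an adjusted p of 0.0651. It passed in the DESeq2 and limma-voom fits, which called 2.05% and 4.34% of all tested genes. At an unadjusted p under 0.05, 4 members were higher (Tgfbr1, Tgfb1i1, Gdf15 and Tgfbi), against 7.59% of all tested genes, and 1 was lower (Smad6), against 5.81%. These counts amount to 13.3% and 3.33% of the tested members. Over both directions the shares were 16.7% of the members and 13.4% of the panel, so the family as a whole did not stand far from the panel. The median log2 fold change was 0.064 over the 30 tested members, 20 of them positive, and 0.0055 over all tested genes.

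The promoters of Tgfbr1 and Smad6 are shown because these members had the smallest p among the receptors and the only lower value among those at an unadjusted p under 0.05. Each line holds the 250 bases before the start of the gene in RefSeq (GRCm38.p6), read 5′ to 3′ on the gene's strand. Capitals mark the searched motifs, on both strands, which were the SMAD box CAGAC, the GC-rich motif GGCGCC bound by BMP-activated SMADs, and the GC box GGGCGG.
Tgfbr1, chr4:47352972-47353221, plus strand: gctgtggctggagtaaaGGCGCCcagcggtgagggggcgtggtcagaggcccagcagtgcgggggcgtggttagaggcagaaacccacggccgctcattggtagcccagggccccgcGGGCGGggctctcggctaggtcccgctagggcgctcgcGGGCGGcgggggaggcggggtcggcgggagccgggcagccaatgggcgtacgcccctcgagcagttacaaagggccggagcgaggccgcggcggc
Smad6, chr9:64022060-64022309, minus strand: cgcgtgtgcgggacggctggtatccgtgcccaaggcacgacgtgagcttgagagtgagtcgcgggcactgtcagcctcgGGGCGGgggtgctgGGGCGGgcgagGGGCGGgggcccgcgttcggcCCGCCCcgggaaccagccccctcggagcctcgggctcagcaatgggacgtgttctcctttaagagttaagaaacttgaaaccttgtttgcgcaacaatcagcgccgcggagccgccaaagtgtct
The Tgfbr1 window had a GC content of 74.8% and held 1 GGCGCC and 2 GC boxes, and the Smad6 window had one of 66.8% and held 4 GC boxes. Neither held the letters CAGAC or GTCTG. Of 32851 windows of this length in the table, 42.2% held the SMAD box, 9.59% GGCGCC and 32.7% the GC box, and the median GC content was 52.4%. Of the 29 windows of 21 tested members, 44.8% held the SMAD box, 27.6% GGCGCC and 69.0% the GC box. The GC content of the members' windows was not measured beyond the 2 shown, so these shares are not compared at like GC content. These matches describe letters only.

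Reads reached very different levels over the 49 amplicons. The 30 tested members were those that passed the filter on low counts, and the other 19 averaged at most 11.0 reads per tumour. Gdf2, which encodes the circulating ligand BMP9, had 0 reads in all 23 tumours, which allows up to 0.0324 CPM (counts scaled to library size) over the 92646148 reads of the series. Gdf9 and Bmp5 had 1 read at most in any tumour, Bmp8b and Smad7 at most 2. Smad7, an inhibitory SMAD that TGF-beta itself induces, was at 0 in 16 of the 23 tumours. Smad2, a receptor-activated SMAD of the TGF-beta branch, had 0 to 8 reads in control and 1 to 10 in abemaciclib tumours. Each gene was read through 1 short amplicon of unknown position, so a low count is that of the amplicon, and levels are compared here between groups and never between genes. The rest below the filter were Bmp2, Bmp3, Bmp6, Bmpr1b, Acvr2b, Gdf7, Bmp8a, Gdf3, Smad9, Inha, Gdf1, Acvr1c and Bmp4. Reads of Bmp8a and Bmp8b, which are near copies, could be exchanged between them, and Gdf1 is transcribed together with Cers1.

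**Figure D1:**
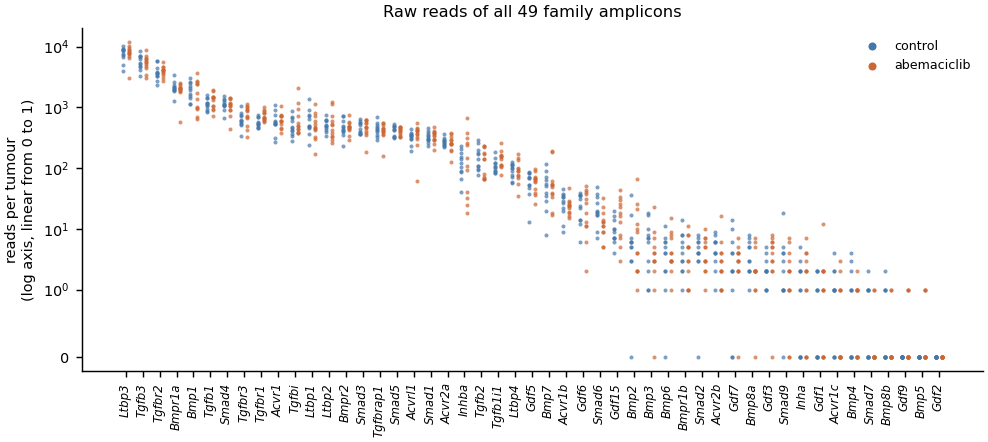
Raw reads per tumour (vertical axis, logarithmic above 1) of the 49 family amplicons, ordered by mean, with each point 1 tumour and colours for the 11 control and 12 abemaciclib tumours. Members from Bmp2 rightwards averaged at most 11.0 reads and were not tested, and Gdf2 had none.

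Total reads were 3044380 to 4492736 in control and 2756919 to 4990391 in abemaciclib tumours, and the family took 0.546% to 0.908% and 0.650% to 0.899% of them. Markers of luminal epithelium were read in both groups, with a summed level of 6024 to 8594 CPM in control and 5236 to 11779 CPM in abemaciclib tumours over 8 panel markers. All 5 macrophage markers had positive log2 fold changes, with a median of 0.47 and a summed level of 636 to 1044 CPM in control and 936 to 1770 CPM in abemaciclib tumours. All 11 markers of dividing cells had negative ones, with a median of -1.03 and summed levels of 412 to 1887 CPM and 139 to 1287 CPM. The 5 fibroblast markers were positive, with a median of 0.32 and summed levels of 531 to 1298 CPM and 391 to 1682 CPM. No marker in these 3 lists had all tumours at 0, and none passed the adjusted threshold by edgeR. At an unadjusted p under 0.05 there were 4 of 5 macrophage markers, all higher, and 11 of 11 of dividing cells, all lower. For fibroblast markers there were 0 of 5. Over all tested genes the shares were 7.59% higher and 5.81% lower. In whole tumours, fewer cells of a type and less RNA per cell cannot be told apart. The part of these cell markers in the differences below was not tested beyond the correlations given later.

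The 3 TGF-beta ligands did not pass. Tgfb1, the isoform best known for immune regulation (chromosome 7, 25687002 to 25705077, mm10), was at 214.8, 289 and 331 CPM (lowest, median and highest) in control tumours and at 237, 300.2 and 564 CPM in abemaciclib tumours. The groups overlapped, with 4 of 12 abemaciclib tumours above every control tumour and tumour 9 highest. The log2 fold change was 0.25 (SE 0.127, adjusted p = 0.399 by edgeR). Tgfb2 was at 19.6, 30.2 and 74.9 CPM in control and 18.8, 31.0 and 57.4 CPM in abemaciclib tumours (log2 fold change -0.16, SE 0.230, adjusted p = 0.804). Tgfb3, an isoform tied to mammary involution, was at 701, 1465 and 1828 CPM and at 964, 1263 and 2092 CPM, with a value of 0.020 (SE 0.152, adjusted p = 0.973) whose sign turned with other scalings. For Tgfb3 the 95% interval ran from -0.29 to 0.33.

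Among the other ligands, Gdf15, a stress-induced cytokine (chromosome 8, 70629393 to 70632456), had the largest log2 fold change of the tested members, at 0.90 (SE 0.341, adjusted p = 0.213). Its levels rested on few reads, 4 to 20 in control and 3 to 44 in abemaciclib tumours. They were 0.816, 2.23 and 4.84 CPM in control and 1.13, 3.81 and 11.3 CPM in abemaciclib tumours, with 5 of 12 treated tumours over the control range and 8 of 12 over its median. Inhba, the subunit of activin A, spread far more among abemaciclib tumours, at 6.15, 31.4 and 127 CPM, than among control tumours, at 11.8, 27.2 and 53.4 CPM. Of the 12 treated tumours, 5 exceeded the control range and 4 lay under it. The log2 fold change of Inhba, 0.57 (SE 0.425, adjusted p = 0.592), was 0.31 without abemaciclib tumour 3, the highest at 127 CPM, and 0.10 without tumours 3 and 10 together. Tumours 9 and 10 were next, at 89.6 and 85.8 CPM. Leaving out high treated tumours lowers the value in any case. The log2 fold change of Inhba was -0.14 by limma-voom with quality weights, so no direction is given. The 3 other tested ligands, Bmp7, Gdf5 and Gdf6, had log2 fold changes of 0.30, 0.053 and -0.0089.

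None of the 4 members named as latent TGF-beta binding proteins passed. Their log2 fold changes ran from -0.21 for Ltbp1 to 0.14 for Ltbp2, with adjusted p of 0.670 or more by edgeR. The 95% intervals were -0.60 to 0.18 for Ltbp1, -0.34 to 0.61 for Ltbp2, -0.14 to 0.38 for Ltbp3 and -0.39 to 0.47 for Ltbp4. Bmp1, a metalloprotease that trims procollagens and chordin, was at -0.068 (SE 0.223), with 2 of 12 treated tumours over the control range and 5 under it. Its coefficient of variation was 20.6% in control and 51.3% in abemaciclib tumours.

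Tgfbr1 (chromosome 4, 47353222 to 47414931, plus strand) was at 102, 139 and 164 CPM in control tumours and at 121, 199 and 254 CPM in abemaciclib tumours. In 9 of 12 abemaciclib tumours it lay above every control tumour, and the other 3, abemaciclib tumours 2, 3 and 10 at 121, 130 and 144 CPM, lay within the control range. The means were 138 ± 17.8 CPM (SD, n = 11) and 191 ± 40.0 CPM (SD, n = 12). The log2 fold change was 0.47 (SE 0.113, 95% interval 0.24 to 0.71), and its p of 3.03e-04 ranked 13 among the 2925 genes tested (adjusted p = 0.0651 by edgeR). With DESeq2's Wald test, which called 2.05% of the tested genes, the adjusted p of Tgfbr1 was 0.00816. With limma-voom and quality weights, which called 4.34%, it was 0.00948. Over all fits it ran from 0.00816 to 0.165. By edgeR it was under 0.05 when abemaciclib tumour 2 (0.0294), tumour 3 (0.0435) or tumour 10 (0.0279) was left out. These are the 3 treated tumours with the lowest Tgfbr1, so a smaller p without them follows from their values and gives no support to the call. The same holds for the fit without tumours 3 and 10 together (0.00873), which was chosen after seeing the data and called 3.18% of tested genes. Scaling by library totals alone shifted the median of all genes to -0.12 and gave Tgfbr1 a value of 0.33. Abemaciclib tumours 2, 3 and 10 also had the highest dividing cell scores of their group, at 0.84, 0.56 and 1.28, where the score is the mean centred log2 CPM of the 11 markers of dividing cells.

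**Figure D2:**
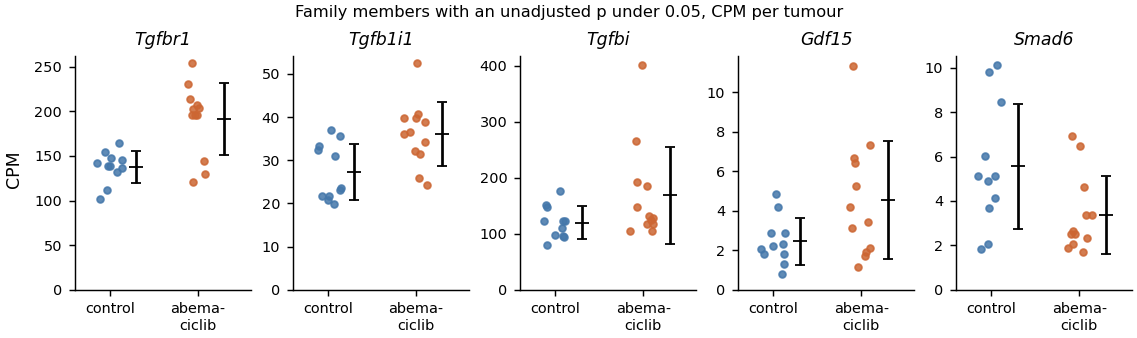
Level in CPM per tumour (vertical axes from 0, points) with mean and SD (bars) of the 5 members at an unadjusted p under 0.05, in 11 control and 12 abemaciclib tumours. For Tgfbr1 9 of 12 abemaciclib points lie above every control point, while for Smad6 none does and 2 lie above the control median.

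The other receptors did not pass. Tgfbr2, the type II receptor of TGF-beta, was at 691, 950.3 and 1173 CPM in control and 817, 1023 and 1104 CPM in abemaciclib tumours. No abemaciclib tumour lay outside the control range. The log2 fold change was 0.13 (SE 0.0976, 95% interval -0.071 to 0.33, adjusted p = 0.595), with a value of -0.0075 under library totals. Tgfbr3, the co-receptor betaglycan, was at 99.5, 155 and 309 CPM and at 89.2, 194 and 325 CPM (log2 fold change 0.32, SE 0.214, adjusted p = 0.558). Acvrl1, the type I receptor ALK1 of endothelium, was at 55.6, 83.3 and 102 CPM in control and 23.4, 89.4 and 140 CPM in abemaciclib tumours, a value of 0.22 (SE 0.194, adjusted p = 0.665), with 5 of 12 abemaciclib tumours above the control range and 2 below it. Bmpr2, the type II receptor of BMPs, was at 66.7, 109 and 219 CPM and at 75.3, 122 and 187 CPM, with 0.068 (SE 0.173, adjusted p = 0.907). Of the 5 tested type I receptors only Tgfbr1 had an unadjusted p under 0.05, and the others ran from -0.12 for Acvr1b to 0.22 for Acvrl1. Whether Tgfbr1 differed from the other receptors was not tested.

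None of the 4 tested SMADs that carry the signal passed, and Smad2 and Smad9 had too few reads to test. Smad3 was at 92.4, 113 and 139 CPM in control and 69.2, 123 and 142 CPM in abemaciclib tumours (log2 fold change 0.060, SE 0.102, adjusted p = 0.847). Smad4 was at 199, 274 and 326 CPM and at 168, 266 and 330 CPM, a value of -0.049 (SE 0.0992, adjusted p = 0.879). The BMP-branch Smad1 and Smad5 were at 0.13 and 0.055. For Smad3, Smad4 and Smad5 the 95% intervals reached -0.25 at the lowest and 0.27 at the highest, and for Smad1 the interval was -0.17 to 0.43. Smad6, which inhibits BMP signalling and is itself induced by it (chromosome 9, 63953076 to 64022059, minus strand), was at 1.84, 5.12 and 10.1 CPM in control and 1.71, 2.58 and 6.94 CPM in abemaciclib tumours. In 10 of 12 treated tumours it lay under the median of control, and in 1 under the control range. The log2 fold change of -0.71 (SE 0.297, adjusted p = 0.268) rested on 7 to 48 reads in control and 5 to 32 in abemaciclib tumours. Its unadjusted p was 0.0240, and it was 0.0550 without control tumour 4, 0.0570 without control tumour 8 and 0.0602 without abemaciclib tumours 3 and 10.

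Some members named for TGF-beta are neither ligands, receptors nor SMADs. Of these, Tgfb1i1 is the focal adhesion protein HIC-5 (chromosome 7, 128246812 to 128255699). It was at 19.9, 23.7 and 37.1 CPM in control and 24.4, 36.3 and 52.5 CPM in abemaciclib tumours. In 12 of 12 treated tumours it exceeded the median of control, and in 5 the whole control range. The log2 fold change was 0.40 (SE 0.142, adjusted p = 0.190 by edgeR). Limma-voom with quality weights, which called 4.34% of all tested genes, gave an adjusted p of 0.0420. Tgfbi, a secreted matrix protein that TGF-beta induces (chromosome 13, 56609523 to 56639562), was at 80.5, 122 and 176 CPM and at 105, 130 and 401 CPM, a value of 0.49 (SE 0.204, adjusted p = 0.269). Abemaciclib tumours 3 and 10 were highest, at 401 and 266 CPM. Without both, the log2 fold change of Tgfbi was 0.17, and without tumour 3 alone 0.30. Lower values follow from leaving out the highest treated tumours, and this pair was chosen after seeing the data. Tgfbrap1, a protein that binds the receptors, was at -0.018 (SE 0.116).

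**Figure D3:**
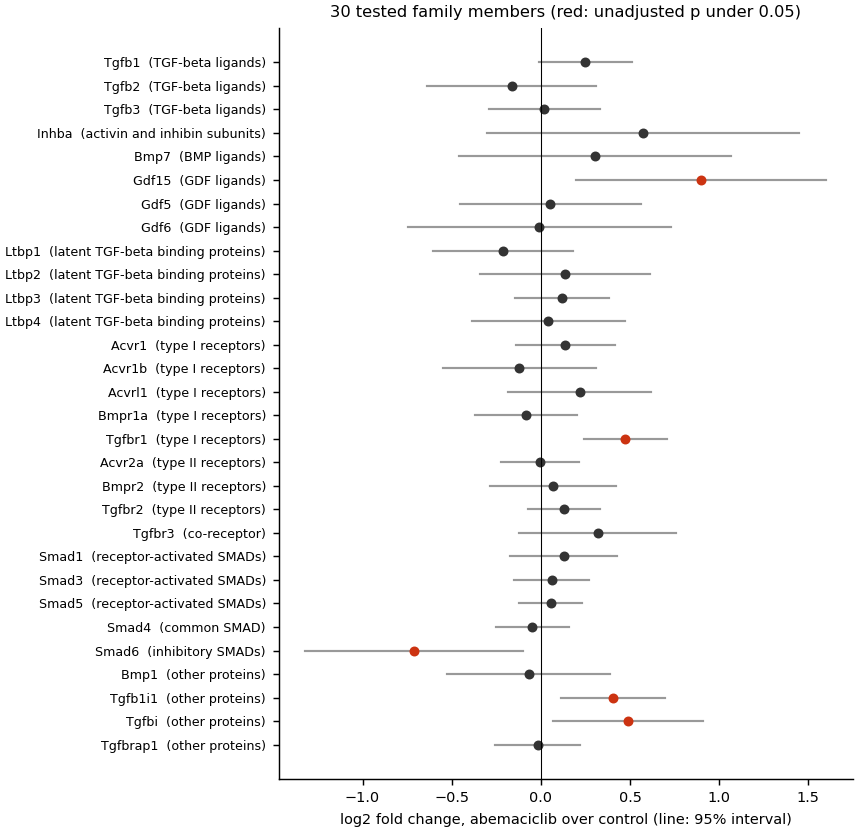
Log2 fold change of abemaciclib over control (horizontal axis) with its 95% interval (lines) for the 30 tested members, ordered by role, with red points at an unadjusted p under 0.05. Most points lie between -0.2 and 0.2, as 19 of 30 do, and Tgfbr1 has the interval farthest from 0 relative to its width.

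Genes around the pathway were described from lists of antagonists, activators, SMAD regulators and induced genes. None of the 56 tested list genes passed the adjusted threshold by edgeR. At an unadjusted p under 0.05 there were 7, or 12.5%, against 13.4% of the panel, and 66.1% were positive against 51.1%. Of 21 tested genes induced by TGF-beta, 16 were positive, with a median of 0.16, 3 of them at an unadjusted p under 0.05 and higher, where the panel share was 7.59%. These were Tagln, a smooth muscle actin-binding protein, at 0.44 (SE 0.152, adjusted p = 0.185 by edgeR), Pthlh and Angptl4. Pthlh, a secreted hormone-like peptide, was at 1.22 (SE 0.585, adjusted p = 0.364 by edgeR). Angptl4, a lipase inhibitor, was at 0.79 (SE 0.379, adjusted p = 0.368 by edgeR). Its levels ran from 49.5 to 487 CPM in control and from 104 to 749 CPM in abemaciclib tumours. Pthlh exceeded the median of control in 4 of 12 treated tumours, and its value was carried by abemaciclib tumour 3 at 50.6 CPM, where the treated median was 2.83 CPM and that of control 3.59 CPM. Without that tumour its log2 fold change was 0.27, and without tumours 3 and 10 it was -0.40. A lower value follows from leaving out the highest treated tumour. Of 5 tested genes induced by BMPs, 4 were negative, with a median of -0.17. Hey1, a transcriptional repressor, was at -0.52 (SE 0.225, adjusted p = 0.292), under the median of control in 10 of 12 treated tumours, and Id2 at -0.17 (SE 0.172). Id4 was at -0.73 (SE 0.508), a value carried by control tumour 8 at 168 CPM and -0.23 without it, and 7 of 12 treated tumours lay above the median of control. Without abemaciclib tumours 3 and 10 it was -1.37. Of the activation and co-receptor list, 9 of 12 were positive with a median of 0.16. The gelatinase Mmp2 was at 0.74 (SE 0.285, adjusted p = 0.216 by edgeR). Its levels ran from 93.3 to 304 CPM in control and from 106 to 916 CPM in abemaciclib tumours. Nrp1 was at 0.31 (SE 0.139, adjusted p = 0.326 by edgeR). Lrrc32, which docks latent TGF-beta on cells, was at 0.54 (SE 0.306), or 0.32 without abemaciclib tumour 9. The 6 tested antagonists had a median of 0.43, and of -0.22 without abemaciclib tumours 3 and 10, a pair chosen after seeing the data. Among them the BMP antagonist Grem1 was at 0.98 (SE 0.455, adjusted p = 0.343 by edgeR). Its levels ran from 2.63 to 24.1 CPM in control and from 2.06 to 49.5 CPM in abemaciclib tumours. The pseudoreceptor Bambi was at -0.27 (SE 0.154) and the proteoglycan Dcn at 0.39 (SE 0.267). The 12 SMAD regulators were split 6 to 6, with a median of 0.0069 and 0 at an unadjusted p under 0.05, and Tgif2, a SMAD corepressor, had the smallest p, at -0.44 (SE 0.267).

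Several members varied between tumours of a group together with markers of dividing cells. Correlations were computed over 23 tumours after removing each group's mean, for 30 members and 4 marker scores, which is 120 pairs, with p by permuting tumours within groups and adjusting over all 120. Tgfbr3 was lower where the dividing cell score was higher, with Pearson's r of -0.81 and Spearman's rho of -0.84 (permutation p = 3e-05 for each, adjusted p = 0.0036). Within control and within abemaciclib tumours r was -0.81 and -0.82, and r was -0.76 without the 2 tumours farthest from the median score. Inhba had r of 0.81 and rho of 0.72, with 0.62 in control and 0.85 in abemaciclib tumours and 0.76 without the 2 farthest. Bmp1 had r of 0.77 and rho of 0.72, with 0.70, 0.79 and 0.75. Gdf5, a joint and skeletal ligand, had r of -0.63 and rho of -0.72. By rank correlation alone, Acvrl1 passed with rho of -0.70 and Ltbp1 with rho of 0.60 (adjusted permutation p = 0.010 and 0.048). Their r was -0.61 and 0.48, and -0.37 and 0.65 with library totals in place of TMM. Tgfbr1 did not pass, with r of -0.55 and rho of -0.16 (permutation p = 0.017 and 0.474), and r was -0.053 when libraries were scaled by totals. The dividing cell score itself followed the TMM scaling factor of the libraries (r = 0.84, permutation p = 1e-05, the smallest that these permutations can give). Tgfbr3, Gdf5, Bmp1 and Inhba followed that factor too, with r of -0.73, -0.71, 0.61 and 0.60, and so did Ltbp1 at 0.60 and Bmpr2 at -0.59 (adjusted permutation p = 0.0398 for both). With library totals in place of TMM the correlations of these 4 members with the score were -0.69, -0.52, 0.85 and 0.84.

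**Figure D4:**
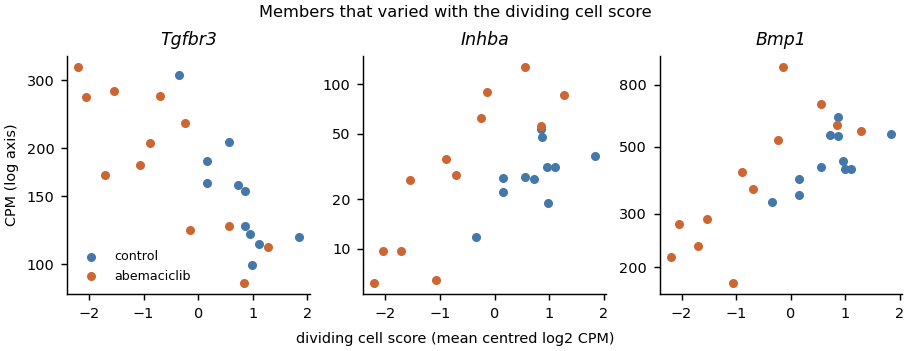
Level in CPM (vertical axes, logarithmic) against the dividing cell score (horizontal axis, mean centred log2 CPM) for Tgfbr3, Inhba and Bmp1, with each point 1 tumour of the 11 control and 12 abemaciclib tumours. Tgfbr3 is lower and Inhba and Bmp1 are higher at higher scores within each colour.

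Vessel and stroma markers accompanied other members. With the endothelial score, r was 0.65 for Bmpr2, 0.70 for Ltbp4 and 0.69 for Ltbp2 (rho 0.66, 0.62 and 0.60). For Bmpr2, which also followed the TMM factor, r was 0.53 with library totals. Its r was 0.53 in control and 0.85 in abemaciclib tumours, and 0.52 without the 2 tumours farthest from the median. For Ltbp4 r was 0.37 in control and 0.86 in abemaciclib tumours, and 0.49 without the 2 tumours farthest from the median. For Ltbp2 the values were 0.41, 0.78 and 0.69. Acvrl1, named above for endothelium, did not pass with this score, at r of -0.080 and rho of 0.13. Its r was 0.54 in control and -0.21 in abemaciclib tumours. With the fibroblast score, Ltbp4 had r of 0.67, but rho of 0.51 did not pass (adjusted p = 0.139 by permutation), and Tgfb1 had r of 0.66 and rho of 0.60, with 0.33 in control and 0.75 in abemaciclib tumours. No member passed with the macrophage score, where the largest r was that of Tgfbr1 at 0.45 (permutation p = 0.040, adjusted p = 0.242; rho 0.31) and the largest rho in size that of Acvr1b at -0.48 (adjusted permutation p = 0.167).

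**Figure D5:**
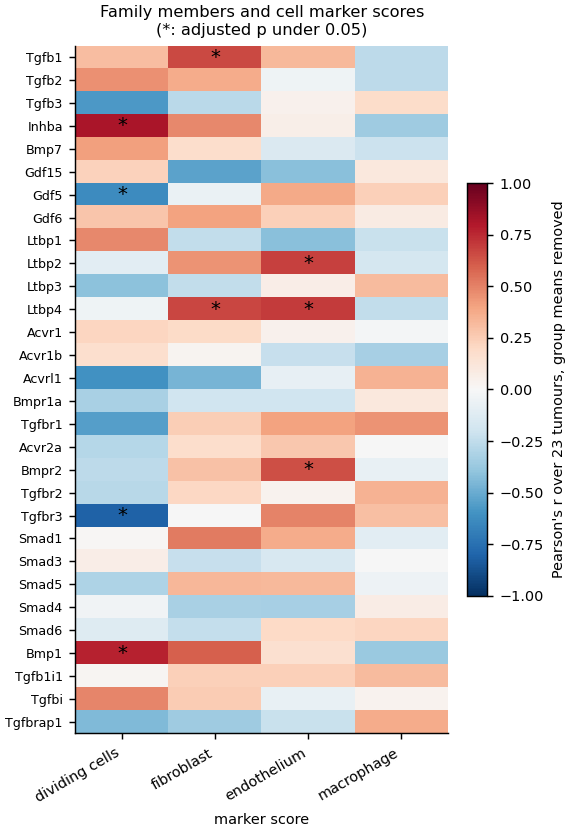
Pearson's r over 23 tumours with group means removed (colour) between the 30 tested members (rows) and 4 marker scores (columns), with stars at an adjusted permutation p under 0.05. Of the 9 stars, 4 stand in the dividing cell column, 3 in the endothelial, 2 in the fibroblast and 0 in the macrophage column.

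Among the members themselves, 15 of 435 pairs passed for Pearson's r, 10 of them positive. Bmp1 and Inhba varied together most closely, with r of 0.93 and rho of 0.85 (permutation p = 1e-05 for each, the smallest possible, adjusted p = 0.00435), while r was 0.78 within control and 0.95 within treated tumours, and 0.93 without the 2 tumours farthest from the median. Tgfbr3 and Gdf5 also passed by both measures, with r of 0.70 and rho of 0.78, and 0.56 in control and 0.91 in abemaciclib tumours. The other 13 pairs did not pass by rank correlation. Among them, Acvrl1 and Bmp1 varied in opposite directions, with r of -0.80 and rho of -0.69 (adjusted permutation p = 0.0058 and 0.0582). Members that share a library share its scaling, and these pairs are a description of the 23 tumours.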

How the data were processed

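RNA of 23 mammary tumours was measured with a custom Ion AmpliSeq panel, 1 short amplicon per gene, per the labels' protocols. The authors deposited unnormalized whole-number read counts, in 1 column per tumour. Per the submitters' processing notes the genome was mm10. Aligner, counting program and amplicon positions are not given in the sources used. Reads carry no molecular identifiers, so limits from counts cover counting error only.

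All 3826 genes were fitted together in R 4.3.3 with edgeR 4.0.16 (filterByExpr, TMM, glmQLFit and glmQLFTest, two-sided, Benjamini-Hochberg at 0.05), which left 2925 genes, and only family rows are printed. CPM come from TMM-scaled totals, scores and correlations from log2 CPM with a prior count of 2, and permutation tests drew 100000 resamples. In a simulation of this comparison over 2925 genes, 43 of 67 genes changed 1.5-fold and 57 of 67 changed 2-fold were called. So were 66 of 66 changed 4-fold and 10 of 2719 unchanged genes. In the measured tumours, the 11 markers of dividing cells had a median log2 fold change of -1.03. Of these markers 0 passed, with adjusted p of 0.0578 to 0.310 by edgeR. Whether the simulated shares hold for the measured tumours was not tested. No libraries were copies, since chi-square per degree of freedom was at least 16.7 over all 253 pairs. Gene positions, 1-based, are those of GENCODE M21, in which all 49 members matched, and promoters were found in the RefSeq table for 34 members.

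Members, lists and tests were chosen with earlier results of these data known. Full statistics are given for the 10 members with the smallest p and, whatever their result, for Tgfb1, Tgfb2, Tgfb3, Tgfbr1, Tgfbr2, Bmpr2, Smad3 and Smad4. Smad2 and Smad7 were also on this list, but were not tested, so only their reads are given. Up to 3 genes per pathway list are given with their log2 fold changes. Other values were chosen after they were seen, as were the pairs of members. Alternatives were other scalings, filters, DESeq2 1.42.0, limma-voom (limma 3.58.1), the replicate number as a block and leaving out tumours. The reported comparison uses every tumour.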

Additional observations from a re-analysis of the deposited data

How the results depend on the processing

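The number of members higher at an adjusted p under 0.05 was 0 by edgeR, 1 by DESeq2's Wald test (2.05% of all tested genes called), 2 by limma-voom with quality weights (4.34%) and 1 without abemaciclib tumours 3 and 10, a fit that called 3.18% of tested genes and was added after seeing the data. It ran from 0 to 1 when each tumour was left out in turn, with 1 without abemaciclib tumour 2, 3 or 10, fits that called 1.03%, 0.343% and 1.61% of tested genes against 0% with every tumour. At an unadjusted p under 0.05 the number higher was 4 (panel 7.59%), with 2 under library totals (panel 3.38%), 7 of 48 with no filter on low counts (panel 7.95%) and 3 to 5 with a tumour left out (panel 6.65% to 9.02%). The number lower was 1 (panel 5.81%), with 0 at a mean count of at least 50, where Smad6 is not tested (panel 5.50%), 0 without abemaciclib tumours 3 and 10 (panel 8.89%), and 0 to 1 with a tumour left out (panel 4.74% to 7.03%). Tgfbr1 was positive in every fit run, at 0.48 by DESeq2, 0.50 by limma-voom and 0.55 without abemaciclib tumours 3 and 10 (adjusted p = 0.00816, 0.00948 and 0.00873), and at 0.43 to 0.52 with a tumour left out. Inhba turned to -0.14 by limma-voom. Under library totals, which move the median of all genes to -0.12, Tgfbr2 turned to -0.0075, Tgfb3 to -0.11, Bmpr2 to -0.029 and Smad3 to -0.062. Tgfb3 also turned to -0.022 with upper-quartile factors and ran from -0.056 to 0.067 with a tumour left out, and Bmpr2 ran from -0.0024 to 0.20. The median of the antagonist list turned to -0.10 by limma-voom and to -0.22 without abemaciclib tumours 3 and 10. That of the SMAD regulators was -0.13 under library totals, -0.028 with upper-quartile factors, -0.0049 with housekeeping scaling, -0.015 by limma-voom and -0.033 without abemaciclib tumours 3 and 10. The cause was not tested for these shifts.

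Control and abemaciclib tumours share numbers in their titles, which nothing in the labels ties to a shared animal or day. Over 11 same-numbered pairs the correlation of deviations from the group means ran from -0.43 to 0.45, with 5 above 0.1, and 2 of 11 control tumours correlated best with the abemaciclib tumour of their own number, so the numbers were not read as pairs. With the replicate block, 0 members passed, Tgfbr1 was at 0.44 (adjusted p = 0.159), Gdf15 at 0.63 and Tgfb3 at -0.013.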

Other observations

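The spread between tumours was wider under treatment for most members, as it was for most tested genes of the panel. In 22 of the 30 tested members the coefficient of variation of CPM was larger in the abemaciclib group, a share of 73.3%, against 62.6% of all 2925 tested genes. Its median over the members was 24.2% in control and 30.1% in abemaciclib tumours, and over all tested genes 23.2% and 26.3%. Inhba went from 39.6% to 87.4%, Tgfbi from 24.2% to 51.6%, Tgfb1 from 12.2% to 29.1% and Acvrl1 from 17.8% to 37.6%. Tgfbr2, Acvr1 and Acvr1b went the other way, from 19.6% to 8.22%, from 29.0% to 15.1% and from 39.1% to 20.8%. These members were picked after their values were seen, and the difference in spread was not tested.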
